A study of Mus musculus with 9 samples.

Results

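The subunits of respiratory complexes I to IV that are encoded in the nucleus were followed across 3 livers of Notch1 wild-type mice, 3 livers of Notch1 knockout mice and 3 angiosarcoma cell lines. Members were chosen by gene symbol alone: Nduf with a, b, c, s or v and digits for complex I, Sdha to Sdhd for complex II, symbols starting with Uqcr for complex III, and Cox4 to Cox8 with any ending for complex IV. The rule found 63 of the 19938 genes on the arrays, of which 34 belong to complex I by name, 4 to complex II, 8 to complex III and 17 to complex IV. Each gene is represented by 1 probe set that the platform's annotation gives to that gene alone, the brightest over the 9 arrays where there were several. Cox7c, Ndufb1 and Ndufb4, which the rule would also take, had no such probe set and were not analysed in the counts. Ndufa4 is counted with complex I by its name, although it is now known as a subunit of complex IV.

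The first group, WT liver, holds liver of mice with loxP-flanked Notch1 alleles and no Cre. The second, KO liver, holds liver of mice with the same alleles and MxCre, a Cre recombinase under an interferon-responsive promoter that is active in many cell types. The mice of both groups were C57Bl/6, and each was given poly(I:C), an RNA mimic that switches on MxCre, at 300 µg per injection on days 0, 3 and 6 from an age of 4 weeks. The KO animals therefore differ from the WT animals by MxCre as well as by Notch1, and an effect of Cre cannot be told apart from that of the deletion. The third group, AS cell line, holds 3 separately derived lines grown out of liver endothelial cells of knockout mice that had a visible angiosarcoma, a tumour of vessel-lining cells. Long culture selected the lines for growth. The lines are cultured cells set against tissue, so culture, cell type and malignancy cannot be told apart in any comparison with them. The extraction protocol names PHH, an abbreviation that is not explained, as the source of the RNA.

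Expression is given on the log2 scale of robust multi-array averaging (RMA), so 1 unit is a doubling. Array medians ran from 6.53 to 6.63 over 35556 probe sets. Notch1 itself read 11.69, 11.02 and 11.71 in the WT livers, 7.84, 8.75 and 8.52 in the KO livers, and 8.75, 8.61 and 7.83 in the lines. Every KO liver and every line thus lay below every WT liver. The difference was -3.10 for KO against WT livers (adjusted p = 0.0995 in limma) and -3.08 for lines against WT livers (adjusted p = 0.00159). Where the probes lie relative to the deleted exon was not analysed here.

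Some arrays stood apart from their group. Over 15 hepatocyte marker genes, the mean log2 level was 11.67, 12.68 and 12.60 in WT replicates 1 to 3, 10.77, 12.70 and 9.49 in the KO replicates, and 7.89, 9.81 and 7.54 in the lines. WT replicate 1 was thus low for its group, and KO replicate 2 read like the WT livers. The lines went against their label: the mean of 14 endothelial markers was between 12.15 and 12.52 in the livers and between 6.01 and 6.44 in the lines, and all 14 markers were lower in the lines in both tests. Pecam1, an endothelial adhesion molecule, read 5.39 to 5.81 in the lines against 11.41 to 11.92 in the livers. Of 5 bile duct markers, 4 were higher in the lines (Krt7, Krt19, Cdh1 and Sox9), and the mean of the 5 was between 9.83 and 10.37 there against 6.13 to 7.25 in the livers. In such bulk samples, fewer cells of a type and less RNA per cell cannot be told apart.

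The respiratory chain sits in the inner mitochondrial membrane. Complex I takes electrons from NADH and complex II takes them from succinate, complex III passes them from ubiquinol to cytochrome c, and complex IV hands them to oxygen, while complexes I, III and IV pump protons that drive ATP synthase. A few subunits of complexes I, III and IV are encoded in mitochondrial DNA, and all other subunits come from nuclear genes whose promoters are known for sites of NRF1, ETS factors such as GABP, and YY1, with the coactivator Ppargc1a acting on several of these factors. Several complex IV subunits exist as pairs of genes, with a form found in most tissues and a second form known from muscle, lung or testis. Hepatocytes are rich in mitochondria and use this chain for gluconeogenesis, urea synthesis and fatty acid oxidation.

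Promoter windows of the members were searched for the known motifs, whether or not a member was higher in the lines. A link between motifs and differences in expression was not tested. RefSeq windows of 250 bases before to 50 bases after the start, on build GRCm38.p6, were found for 51 members (53 windows) and not for the other 12. Both strands were searched, and a base could count for more than 1 motif. The NRF1 core (GCGCA, 1 base of any kind, then GCGC) was in 11 of 53 member windows (20.8%) against 4.6% of all 32851 windows. The ETS core CCGGAAG was also in 11 (20.8%) against 8.86%, and the YY1 core AANATGGC in 13 (24.5%) against 6.05%. At least 1 of these 3 motifs was in 31 member windows (58.5%), against 17.4% of all windows. The members' windows were also richer in G and C, with a median of 57.3% against 52.7%. The YY1 core lay mostly in complex I, where 12 of 33 windows held it, and the ERR half-site TCAAGGTCA was in 1 member window (1.89%) against 0.423% of all. The NF-Y box CCAAT, searched alongside, was in 37.7% of member windows and 37.4% of all.

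The windows of 4 members are shown, 5′ to 3′ on the gene's own strand, with matches of the first 4 motifs in capitals. Cox7a1 had the largest difference of all members in the lines, Ndufc1 was among the largest of complex I, and Sdhd and Sdha are 2 subunits of the same complex that differed in how far the lines stood from the livers. They lie at chr7:30183921-30184220 (plus strand, Cox7a1), chr3:51408906-51409205 (minus strand, Ndufc1), chr9:50603800-50604099 (minus strand, Sdhd) and chr13:74350191-74350490 (minus strand, Sdha).
Cox7a1: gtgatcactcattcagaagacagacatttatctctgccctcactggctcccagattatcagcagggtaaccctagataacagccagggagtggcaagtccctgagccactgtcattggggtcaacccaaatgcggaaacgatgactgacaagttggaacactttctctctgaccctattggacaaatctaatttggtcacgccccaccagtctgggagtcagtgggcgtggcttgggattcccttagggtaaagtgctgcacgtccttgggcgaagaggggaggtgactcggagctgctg
Ndufc1: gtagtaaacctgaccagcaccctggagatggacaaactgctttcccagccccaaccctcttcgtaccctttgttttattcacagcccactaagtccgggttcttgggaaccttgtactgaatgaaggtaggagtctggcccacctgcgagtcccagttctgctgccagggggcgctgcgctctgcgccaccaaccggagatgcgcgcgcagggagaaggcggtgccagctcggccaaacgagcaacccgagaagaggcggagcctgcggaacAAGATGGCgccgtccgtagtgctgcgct
Sdhd: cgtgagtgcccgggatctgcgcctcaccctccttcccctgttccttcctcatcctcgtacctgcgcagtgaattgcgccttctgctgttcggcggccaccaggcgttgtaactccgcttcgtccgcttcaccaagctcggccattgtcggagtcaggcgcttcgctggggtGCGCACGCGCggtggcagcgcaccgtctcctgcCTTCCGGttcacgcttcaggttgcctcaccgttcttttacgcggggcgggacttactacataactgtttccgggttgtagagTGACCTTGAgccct
Sdha: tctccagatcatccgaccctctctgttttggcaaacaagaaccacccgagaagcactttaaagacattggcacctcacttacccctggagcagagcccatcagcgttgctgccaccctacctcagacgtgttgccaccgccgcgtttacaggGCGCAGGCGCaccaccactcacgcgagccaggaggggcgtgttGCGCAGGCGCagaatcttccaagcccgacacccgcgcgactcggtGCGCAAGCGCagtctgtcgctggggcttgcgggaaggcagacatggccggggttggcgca
Positions are counted from the start, with the first transcribed base as 1. The Cox7a1 window held none of the first 4 motifs. Ndufc1 had the YY1 core at bases 23 to 30. Sdhd had the NRF1 core at -79 to -70, and, on the opposite strand, the ETS core at -46 to -40 and the ERR half-site at 37 to 45. Sdha had the NRF1 core 3 times, starting at -98, -55 and -10. A match of letters is a description of the window and does not show that a factor bound there.

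In KO against WT livers, no member passed an adjusted p of 0.05, and the 2 groups overlapped for 58 of the 63. The share called over all genes was 0% in each direction, so the members' count of 0 higher and 0 lower equals the background. Of the 63 members, 26 had a difference above 0 and 37 below, with a median of -0.05 against -0.00 over all genes. With dim genes (mean below the median of all probe sets) left out, the median was -0.06 over 58 members and 0.16 over the 11352 genes left. By complex the median was 0.03 for complex I, -0.13 for complex II, -0.08 for complex III and -0.10 for complex IV. Single differences ran from -0.34 (Ndufs6) to 0.33 (Ndufa8). An unadjusted p under 0.05 was reached by 3 members, against 4479 of the 19938 genes.

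Where the KO and WT livers did not overlap, the differences were small. KO livers lay wholly above WT livers for 3 members, when 19.2% of all genes did so, and wholly below for 2 members, when 11.1% did. Ndufa8, an accessory subunit of complex I, read 10.05, 10.24 and 10.31 in the WT livers and 10.42, 10.41 and 10.76 in the KO livers. The groups were separate by 0.10 log2 units, and the difference was 0.33 (SE 0.129), with adjusted p = 0.211 in limma. Cox7a2l, a Cox7a relative, read 8.65, 8.84 and 8.88 against 9.20, 9.21 and 8.93. The difference was 0.32 (SE 0.111, adjusted p = 0.183), and the lines, at 8.76, 9.16 and 9.04, overlapped both liver groups. The third member wholly above was Uqcrc1, a core protein of complex III, with a difference of 0.22 (SE 0.110, adjusted p = 0.296). Cox6a2, known as the heart and muscle form of a complex IV subunit, read 8.52, 8.33 and 8.54 in the WT livers and 8.15, 8.18 and 8.27 in the KO livers. This difference of -0.26 (SE 0.083) had the smallest adjusted p of any member, 0.161. Ndufa3, an accessory complex I subunit, was the other member wholly below, at -0.31 (SE 0.130, adjusted p = 0.233).

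KO and WT livers overlapped for the core and other subunits named next, apart from Uqcrc1, Ndufa8 and Ndufa3, which are described above. Ndufs1, which holds iron-sulfur clusters, differed by 0.16 (SE 0.195), and Ndufv1, which binds NADH and flavin, by -0.14 (SE 0.228). Sdha, the succinate-binding flavoprotein of complex II, differed by -0.17 (SE 0.237), its iron-sulfur partner Sdhb by -0.09 (SE 0.212) and the membrane anchors Sdhd by -0.33 (SE 0.180) and Sdhc by 0.14 (SE 0.215). In complex III the largest differences were those of Uqcrb (-0.26), Uqcrq (-0.24) and Uqcrc1 (0.22), and the smallest those of Uqcr10 (-0.00) and Uqcrh (0.01), while the Rieske iron-sulfur protein Uqcrfs1 differed by 0.05. In complex IV, Cox4i1 differed by -0.09, Cox5a by -0.07, Cox5b by -0.14 and Cox7a1 by -0.19, and the smallest differences were those of Cox8b (0.01) and Cox6b2 (0.02). Besides Ndufs6, Ndufa8 and Ndufa3, the largest differences of complex I were those of Ndufb6 (-0.33), Ndufa13 (-0.28) and Ndufs8 (-0.26), and the smallest those of Ndufb7 (-0.00) and Ndufv2 (-0.01). Leaving aside Ndufa8 and Ndufa3, adjusted p-values of these members in limma ran from 0.243 (Uqcrb) to 0.990 (Ndufb7).

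Within each liver group the members moved together from array to array. WT replicate 1 was the lowest of its group for 49 of the 63 members, and KO replicate 2 was the highest of its group for 50. The mean over all 63 members was 9.45, 9.69 and 9.71 in the WT livers and 9.47, 9.74 and 9.50 in the KO livers, so WT replicate 1 read like KO replicates 1 and 3, and KO replicate 2 like WT replicates 2 and 3. Hepatocyte markers were lower in KO than in WT livers for 15 of 15 genes (median -1.21, none past the threshold), with KO replicate 2 at the WT level. Their mean spanned 3.21 log2 units among the KO livers, where that of the members spanned 0.27. Proliferation markers were wholly higher in KO livers for 9 of 9 genes (median 1.61), with array means of 6.98 to 7.13 in WT and 9.34, 7.92 and 8.85 in KO livers. The part of these markers in the members' values was not tested. Without WT replicate 1 the members' median was -0.10 and 0 were called, and the same values, -0.10 and 0, were found without KO replicate 2, when 1671 genes were called higher and 278 lower over all genes.

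A fit in which limma weighted the arrays by their scatter gave WT replicate 1 a weight of 0.274 and KO replicate 2 one of 0.315, and called 8 members, all of them lower in KO livers. They were Ndufa6, Ndufa13, Ndufb9, Ndufs6, Sdhd, Uqcr11, Uqcrq and Cox6c, at differences of -0.29 (Cox6c) to -0.66 (Uqcr11). That fit also called 3905 genes higher and 1839 lower over all genes, where the unweighted fit called none.

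**Figure D1:**
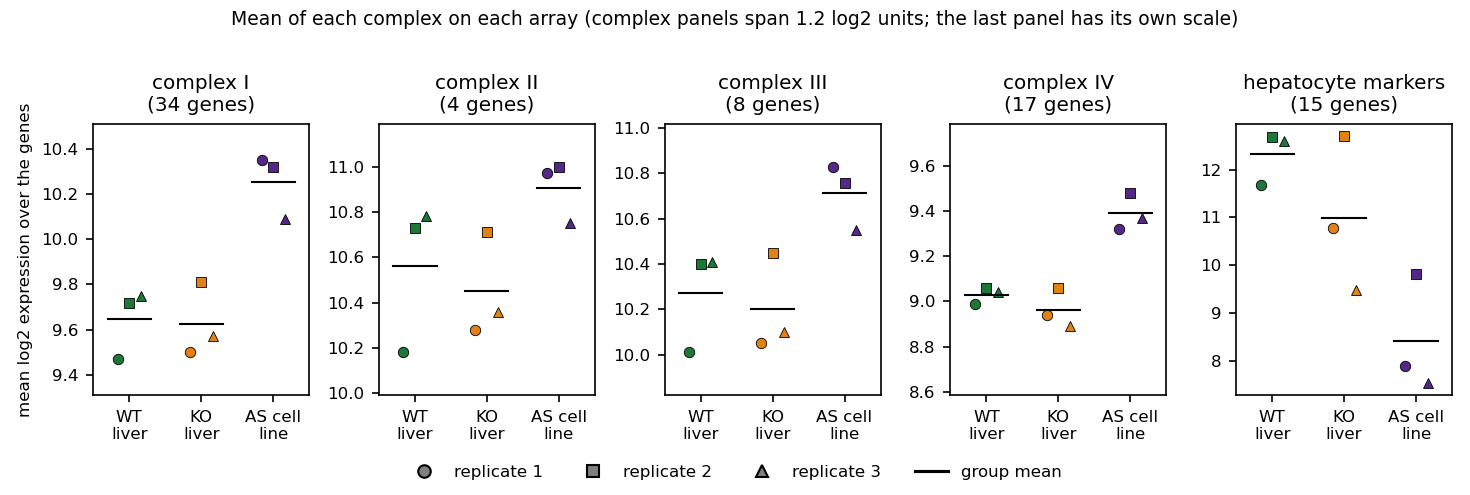
Mean log2 expression (vertical axis) of the members of each complex on each of the 9 arrays, and of 15 hepatocyte marker genes in the last panel, which has its own scale. Symbols are replicates and bars are group means. The 3 lines sit at 10.09 to 10.35 for complex I, above all 6 livers at 9.47 to 9.81, and KO replicate 2 sits near WT replicates 2 and 3 in each panel.

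In all 3 lines, the mean level of the respiratory chain members was above that of every liver. The mean over the 63 members was 10.17, 10.19 and 10.00 in the lines and 9.45 to 9.74 in the 6 livers. Every line was above every liver for 34 members, of which 23 of 34 were in complex I, 1 of 4 in complex II, 2 of 8 in complex III and 8 of 17 in complex IV. Over all genes, 19.8% had every line above every liver. No member had every line below every liver, as 13.3% of all genes did. WT and KO livers were each set against the same lines in what follows, so the 2 sets of values share the lines' arrays and are given side by side.

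Against KO livers, 22 of the 63 members were higher and 0 lower at an adjusted p under 0.05, when 11.4% of all genes were called higher and 10.1% lower. The difference was above 0 for 61 of 63 members, with a median of 0.52 (1.44-fold) against 0.05 over all genes. Lines and KO livers did not overlap for 40 members, all with the lines higher, when 24.1% of genes had the lines wholly higher and 16.7% wholly lower. Against WT livers, 21 members were higher and 0 lower, when 17.6% of genes were called higher and 11.1% lower. Here too 61 of 63 differences were above 0, with a median of 0.47 (1.39-fold) against 0.02 over all genes. Lines and WT livers did not overlap for 37 members, all higher in the lines, when 28.3% of genes were wholly higher and 19.5% wholly lower. In all, 16 members were called higher in both comparisons, 6 against KO livers alone, 5 against WT livers alone and 36 in neither. The share of all genes called in both is not given here, so the count of 16 has no background beside it.

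Most members are bright genes, and with dim genes left out a larger share of all genes was called higher in the lines. Of the 63 members, 56 were at or above the median of all probe sets on all 9 arrays, and 4 (Cox6b2, Cox7b2, Cox8b and Cox8c) were below it on all 9. The filter on dim genes used the mean over both groups, so a gene dim in the livers could stay in through the lines. Cox7a1, with means of 6.53 in WT livers, 6.34 in KO livers and 8.47 in the lines, was such a member. The shares that follow, of members and of all genes, can therefore hold genes kept by their level in the lines. With dim genes left out, 25 of 59 members (42.4%) were higher against KO livers, when 19.1% of genes were, and the median was 0.54 against 0.12 over the genes left. Against WT livers 24 of 59 (40.7%) were higher, when 29.9% of genes were, with medians of 0.54 and 0.27.

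These counts depended on single livers, as did those of all genes. Against KO livers, 5 members were called without KO replicate 1 and 6 without KO replicate 3. In these 2 fits 986 and 1023 of the 19938 genes were called higher, where the full fit called 2268. Against WT livers, leaving out WT replicate 1, 2 or 3 gave 12, 8 or 11 called members. Over all genes the same fits called 2302, 1931 or 2046 higher, where the full fit called 3506. The members' median moved less, between 0.47 and 0.61 against KO livers and between 0.41 and 0.54 against WT livers over the leave-one-out fits. Calls that held in all 6 leave-one-out fits were 5 against KO livers (Ndufa2, Ndufa3, Ndufa12, Ndufa13 and Cox7a1) and 7 against WT livers (Ndufa2, Ndufa7, Ndufa11, Ndufa12, Cox5a, Cox5b and Cox7a1). The other 17 and 14 calls were lost in at least 1 such fit.

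**Figure D2:**
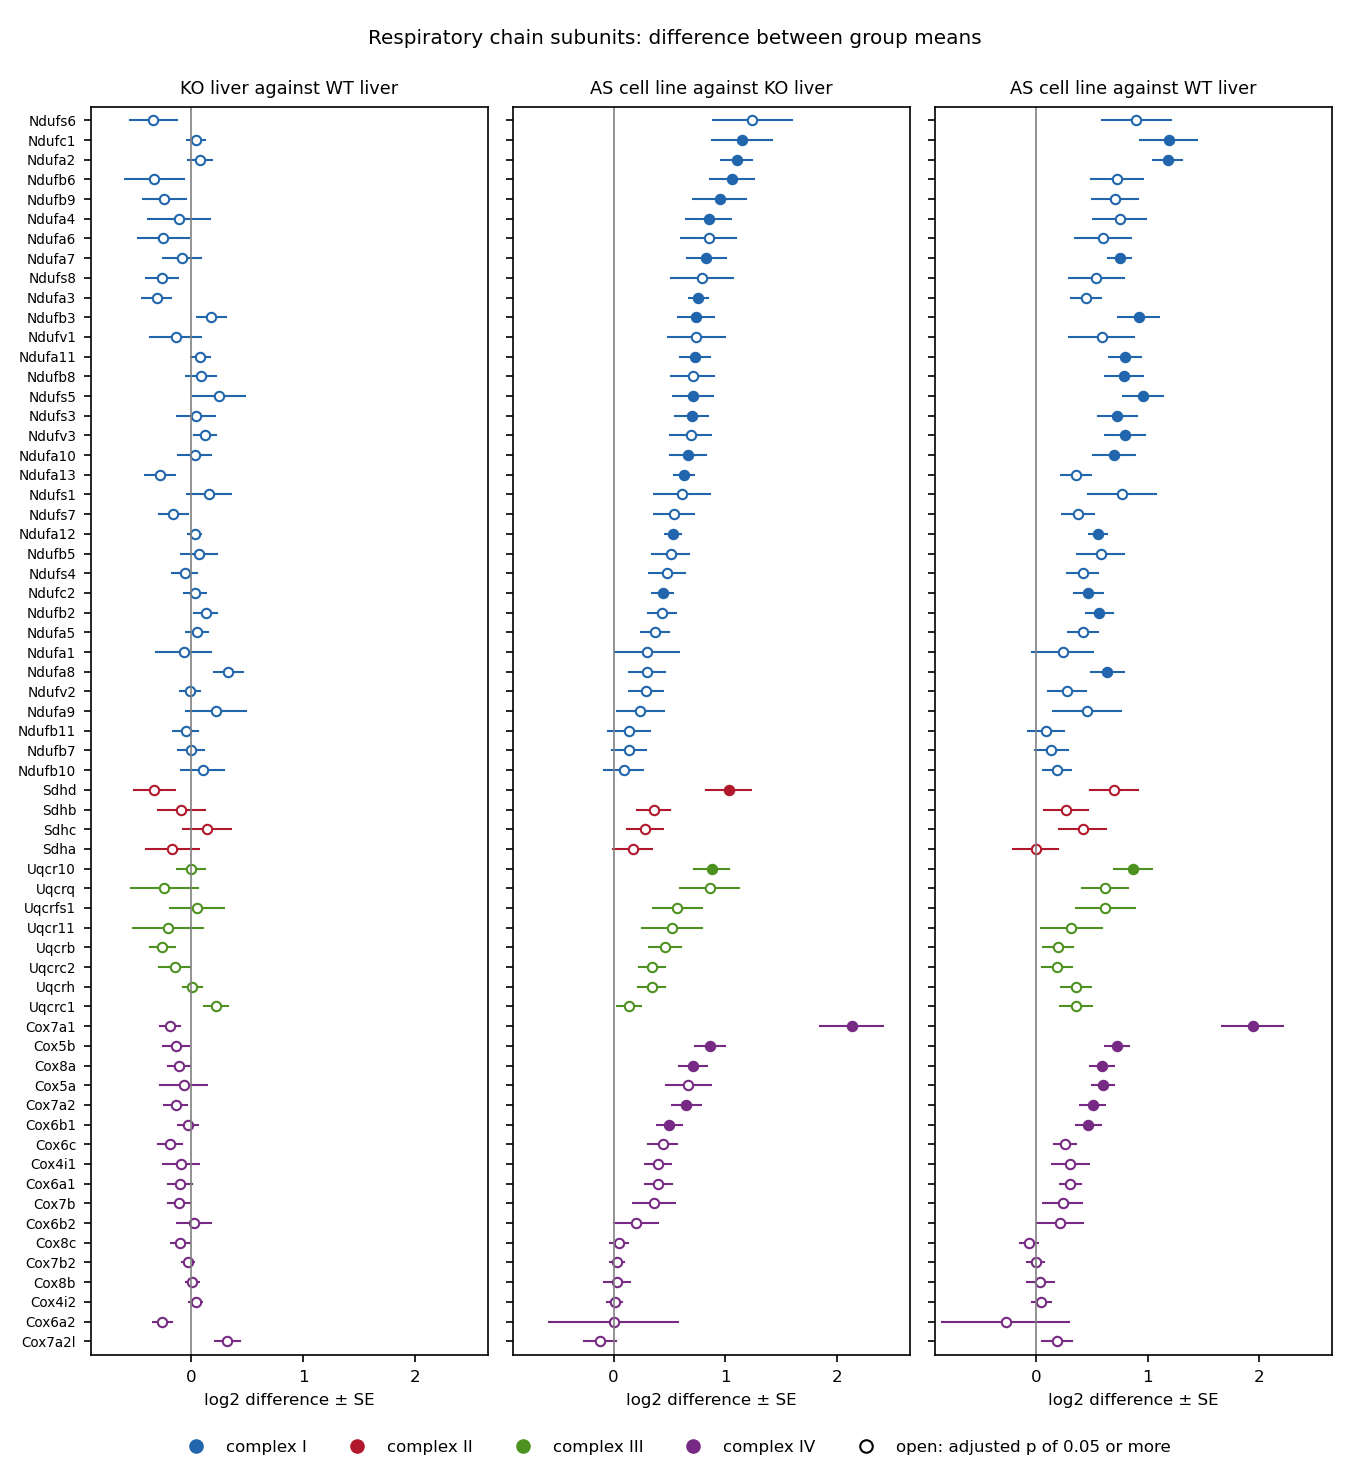
Difference in mean log2 expression (horizontal axis, with standard error) of each of the 63 members in the 3 comparisons, grouped by complex and ordered by the difference between lines and KO livers. Filled points passed an adjusted p of 0.05 in limma. The first panel has no filled point and lies within -0.34 to 0.33, and both line panels lie mostly right of 0, with Cox7a1 farthest right at 2.13 and 1.94.

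Complex I, which holds 34 of the 63 members, had the most members higher in the lines. They were 15 of 34 against KO livers and 14 of 34 against WT livers. Over all genes, 11.4% and 17.6% were called higher, or 19.1% and 29.9% with dim genes left out. All 34 differences were above 0 in both comparisons, with medians of 0.68 and 0.60. Ndufa2, an accessory subunit of the matrix arm, read 9.25, 9.45 and 9.39 in the WT livers, 9.25, 9.56 and 9.54 in the KO livers and 10.53, 10.75 and 10.35 in the lines. Every line was above every liver, with differences of 1.10 from KO livers (SE 0.143, adjusted p = 0.00585 in limma) and 1.18 from WT livers (SE 0.130, adjusted p = 0.00205). Ndufc1, a small subunit of the membrane arm whose window is printed above, read 9.31, 9.33 and 9.39, then 9.25, 9.51 and 9.40, and in the lines 10.60, 11.01 and 10.00. The lines spread over 1.01 log2 units and still lay above all livers, with differences of 1.15 (SE 0.267, adjusted p = 0.0351) and 1.19 (SE 0.256, adjusted p = 0.0200). Its call was lost in 5 of the 6 leave-one-out fits against KO livers and in 4 of 6 against WT livers.

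Of the other large differences in complex I, some passed the test in 1 comparison. Ndufs6, a zinc-binding accessory subunit of the matrix arm, read 8.47, 8.81 and 8.78 in the WT livers, 8.11, 8.77 and 8.16 in the KO livers and 10.08, 9.76 and 8.93 in the lines. It had the largest difference of complex I against KO livers, 1.24 (SE 0.353), but line 3 lay close to the livers and the adjusted p was 0.0635 (0.0840 against WT livers, difference 0.90). Ndufb6, of the membrane arm, was higher by 1.06 against KO livers (SE 0.194, adjusted p = 0.0168), while against WT livers its difference of 0.73 had an adjusted p of 0.0666. For Ndufb9 the differences were 0.95 (adjusted p = 0.0423) and 0.71 (adjusted p = 0.0521). Ndufb3 rose in both, by 0.74 (adjusted p = 0.0284) and 0.92 (adjusted p = 0.0167), as did Ndufs5, by 0.71 (adjusted p = 0.0431) and 0.96 (adjusted p = 0.0117), and Ndufa11, by 0.73 (adjusted p = 0.0166) and 0.80 (adjusted p = 0.00999). Ndufa4 was higher against KO livers by 0.85 (adjusted p = 0.0349), and its difference from WT livers was 0.75 (adjusted p = 0.0660). Ndufv3, an accessory subunit of the NADH-binding module, was higher against WT livers by 0.80 (adjusted p = 0.0219), and Ndufa6 differed from KO livers by 0.85 (adjusted p = 0.0667).

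Smaller differences passed where the arrays were close together. Ndufa12, an accessory subunit added late in assembly, read 9.60, 9.51 and 9.55 in WT livers, 9.56, 9.58 and 9.61 in KO livers and 10.20, 10.07 and 10.07 in the lines. All 6 livers lay within 0.10 log2 units, and the lines were higher by 0.53 than KO livers (SE 0.0695, adjusted p = 0.00612) and by 0.56 than WT livers (SE 0.0819, adjusted p = 0.00546). Ndufa3 had the smallest adjusted p of any member against KO livers, 0.00380 at a difference of 0.76, and its difference from WT livers was 0.45 (adjusted p = 0.0530). Ndufa13, also known as GRIM-19, rose by 0.63 against KO livers (adjusted p = 0.00844) and differed by 0.36 from WT livers (adjusted p = 0.103). Ndufa7 rose by 0.83 (adjusted p = 0.0253) and 0.75 (adjusted p = 0.00444).

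The core subunits of complex I bind NADH and carry its electrons. Of the 6 measured ones encoded in the nucleus (Ndufs1, Ndufs3, Ndufs7, Ndufs8, Ndufv1 and Ndufv2), 1 was called higher in each line comparison, when 11.4% and 17.6% of all genes were, and no test set the core subunits against the accessory ones. The called subunit was Ndufs3, at 0.70 (SE 0.149, adjusted p = 0.0276) and 0.73 (SE 0.174, adjusted p = 0.0282). Ndufs1 read 8.17, 8.75 and 8.87 in the WT livers, 8.65, 8.84 and 8.76 in the KO livers and 9.44, 9.79 and 8.85 in the lines. Line 3 lay within the livers' range, and the differences of 0.61 and 0.77 had adjusted p-values of 0.157 and 0.119. Ndufv1 showed the same order of lines, at 10.72, 10.69 and 9.95 against livers at 9.42 to 10.09, with differences of 0.74 (adjusted p = 0.108) and 0.59 (adjusted p = 0.191). The smallest differences of complex I were those of Ndufb10 (0.09 and 0.19), Ndufb11 (0.14 and 0.09) and Ndufb7 (0.14 and 0.14), whose lines and livers overlapped.

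In complex II, 1 of the 4 subunits was called higher against KO livers and 0 against WT livers, with medians of 0.32 and 0.35. Over all genes, 11.4% and 17.6% were called higher. Sdha read 10.61, 11.16 and 11.31 in the WT livers, 10.58, 11.18 and 10.82 in the KO livers and 11.11, 11.12 and 10.86 in the lines. The lines lay within the range of the livers, and the differences were 0.17 against KO livers (SE 0.176, adjusted p = 0.562) and 0.00 against WT livers (SE 0.203, adjusted p = 0.995). Sdhd, which anchors the enzyme in the membrane and helps bind ubiquinone, read 9.50, 9.92 and 10.03, then 9.26, 9.70 and 9.50, and in the lines 10.80, 10.58 and 10.16. Every line was above every liver. The difference was 1.03 against KO livers (SE 0.202, adjusted p = 0.0212) and 0.70 against WT livers (SE 0.218, adjusted p = 0.0642), and the first call was lost without KO replicate 1, KO replicate 3 or line 2, with adjusted p-values up to 0.0786. Sdhb differed by 0.36 and 0.27 and Sdhc, the other anchor, by 0.28 and 0.42, with overlap in both comparisons. No test compared the subunits with each other.

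In complex III, 1 of 8 subunits was called higher in each line comparison. Over all genes, 11.4% (KO) and 17.6% (WT) were called higher, so this count lies near the background. The called subunit was Uqcr10, a small subunit of the membrane part of the complex. It read 8.78, 9.04 and 9.14 in the WT livers, 8.91, 9.14 and 8.90 in the KO livers and 9.97, 10.04 and 9.57 in the lines. The lines stood clear of all livers. Their difference was 0.88 from KO livers (SE 0.156, adjusted p = 0.0154) and 0.87 from WT livers (SE 0.169, adjusted p = 0.0141). The other 7 subunits had differences of 0.14 to 0.86 against KO livers and 0.19 to 0.62 against WT livers, none past the threshold. Uqcrq, which sits beside cytochrome b, had the second largest difference in complex III, 0.86 (SE 0.265, adjusted p = 0.0793) and 0.62 (SE 0.208, adjusted p = 0.0782). Uqcrfs1 differed by 0.57 (adjusted p = 0.133) and 0.62 (adjusted p = 0.144), and Uqcrc1 by 0.14 (adjusted p = 0.434) and 0.36 (adjusted p = 0.119). Uqcrc2, the other core protein, differed by 0.34 (adjusted p = 0.0997) and 0.19 (adjusted p = 0.351), and Uqcrb by 0.46 (adjusted p = 0.0859) and 0.20 (adjusted p = 0.343). Medians of the complex were 0.49 and 0.36.

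Complex IV held both the largest rise and the flattest members. Of its 17 members, 5 were called higher against KO livers and 6 against WT livers, with medians of 0.40 and 0.26. Over all genes, 11.4% and 17.6% were called higher, or 19.1% and 29.9% with dim genes left out. The count against WT livers is near the share without dim genes. Cox7a1, known as the heart, skeletal muscle and brown fat form of subunit 7a, read 6.56, 6.59 and 6.45 in the WT livers and 6.46, 6.37 and 6.20 in the KO livers, close to the median of the arrays. In the lines it read 8.03, 9.07 and 8.31, so every line was at least 1.44 log2 units above every liver. The differences were 2.13 against KO livers (4.37-fold, SE 0.281, adjusted p = 0.00616) and 1.94 against WT livers (3.83-fold, SE 0.272, adjusted p = 0.00468). Both calls held in all 6 leave-one-out fits, with adjusted p-values up to 0.0337 and 0.0263. As its liver values lie near those of dim probe sets, these folds may understate the difference. Its counterpart in most tissues, Cox7a2, read 9.79, 9.79 and 9.67, then 9.47, 9.79 and 9.57, and in the lines 10.45, 10.11 and 10.23. It was higher by 0.65 (adjusted p = 0.0223) and 0.51 (adjusted p = 0.0219).

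The other 2 forms known from muscle, Cox6a2 and Cox8b, passed in neither line comparison. Cox6a2 read 7.50, 9.53 and 7.56 in the lines, against 8.15 to 8.54 in the 6 livers. Line 2 was above all livers and lines 1 and 3 below all of them, so the differences of -0.00 and -0.27 had standard errors of 0.579 and 0.567. Without line 2, Cox6a2 was called lower in both comparisons, by -0.67 (adjusted p = 0.0103) and -0.93 (adjusted p = 0.00551), and over the other leave-one-out fits that left out a line the differences were 0.05 to 0.35 (adjusted p 0.728 to 0.963). Line 2 also had the highest Cox7a1 of the 3 lines, the highest hepatocyte marker mean (9.81) and the lowest proliferation marker mean (7.18, against 10.65 and 8.61), and the part of these in the result was not tested. Cox8b, the heart and muscle form of subunit 8, stayed between 5.31 and 5.68 on all 9 arrays, with a difference of 0.04 from WT livers. The 9 markers of striated muscle and brown fat had array means of 5.64 to 5.88, with none called in any comparison.

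None of the forms known from other tissues passed. Cox4i2, of lung, lay between 6.58 and 6.76 on all arrays, and the testis forms Cox7b2 and Cox8c lay between 4.32 and 4.42 and between 6.21 and 6.54. Cox6b2, another testis form, ran from 5.61 to 6.47. Differences of these 4 genes were between -0.06 and 0.22 in the line comparisons, with overlap in each, and those nearest 0 were Cox4i2 against KO livers (0.01) and Cox7b2 against WT livers (0.00). The table gives no detection calls, so whether these genes were expressed at all cannot be read from it.

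Among the subunits found in most tissues, Cox5b, Cox6b1, Cox7a2 and Cox8a were higher in both line comparisons and Cox5a in 1. Cox5b read 11.42, 11.27 and 11.29 in the WT livers, 11.12, 11.41 and 11.03 in the KO livers and 12.01, 12.22 and 11.93 in the lines. All lines were above all livers, by 0.86 for KO (SE 0.135, adjusted p = 0.0104) and 0.73 for WT livers (SE 0.108, adjusted p = 0.00577). Cox8a rose by 0.71 (adjusted p = 0.0140) and 0.59 (adjusted p = 0.0116), and Cox6b1 by 0.50 (adjusted p = 0.0320) and 0.47 (adjusted p = 0.0264). Cox5a read 10.62, 10.67 and 10.68 in the lines, 9.94, 10.03 and 10.21 in the WT livers and 9.95, 10.40 and 9.62 in the KO livers. The wider spread of the KO livers went with an adjusted p of 0.0774 at a difference of 0.67, against 0.00801 at 0.60 for the WT livers. Cox4i1, which joins early in assembly, differed by 0.40 (adjusted p = 0.0695) and 0.31 (adjusted p = 0.233), Cox6a1 by 0.40 (adjusted p = 0.0717) and 0.31 (adjusted p = 0.0553), and Cox7b by 0.36 and 0.24 with overlap. Cox7a2l was 1 of the 2 members with a difference below 0 against KO livers (-0.12, adjusted p = 0.604).

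**Figure D3:**
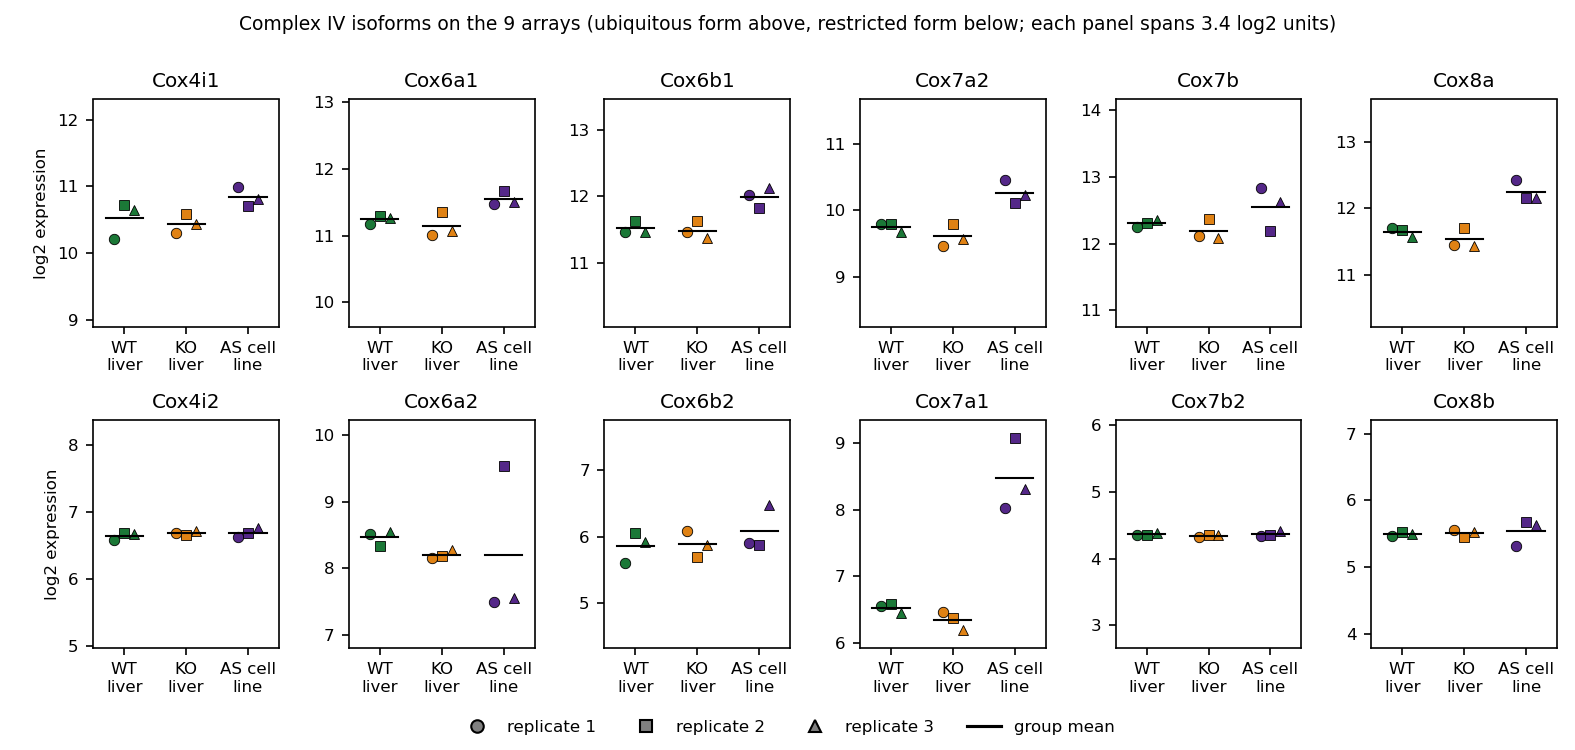
Log2 expression (vertical axis, each panel spanning 3.4 units) of 6 complex IV isoform pairs on the 9 arrays, with the form found in most tissues above and the form of restricted tissues below. Symbols are replicates and bars are group means. Cox7a1 is the lower-row gene with all lines (8.03 to 9.07) clear of all livers (6.20 to 6.59), and Cox6a2 shows line 2 at 9.53 apart from lines 1 and 3. Levels of different genes in a column are not comparable, since each has its own probes.

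Other genes of the pathway were taken from lists, given here by counts and medians without a test of the list. The counts stand beside the shares of all genes called higher in the lines, 11.4% against KO and 17.6% against WT livers, or 19.1% and 29.9% with dim genes left out. Assembly factors build the complexes without being part of them. Against KO livers, 4 of 16 complex I factors were higher (median 0.62), 0 of 4 complex II factors (0.50), 5 of 6 complex III factors (0.88) and 7 of 19 complex IV factors (0.63), with 0 lower. Against WT livers the counts were 5, 2, 5 and 8, with medians of 0.72, 0.75, 0.96 and 0.73, again with 0 lower. The count of 5 of 16 complex I factors against WT livers is near the share without dim genes. Timmdc1, a membrane protein that takes part in building complex I, had the largest difference of its list from KO livers. Its mean was 8.77 over WT livers and 8.68 over KO livers, and it read 10.15, 11.11 and 9.63 in the lines, each above every liver. The difference from KO livers was 1.62 (SE 0.408) at an adjusted p of 0.0453, and that from WT livers was 1.53 at 0.0424. Ndufaf4, another factor of complex I, rose by 1.34 (adjusted p = 0.00986) and 1.54 (adjusted p = 0.00413). Ndufaf1, which builds the membrane arm of complex I, read 7.70, 8.54 and 8.84, then 7.83, 8.69 and 7.96, and in the lines 9.57, 9.72 and 9.25. Its lines lay above all livers, and it rose by 1.35 against KO livers (SE 0.265, adjusted p = 0.0211). Bcs1l, the chaperone that inserts the Rieske protein into complex III, rose by 1.09 (adjusted p = 0.0365) and 1.43 (adjusted p = 0.00872). Cox19, a copper-related factor of complex IV, rose by 1.21 (adjusted p = 0.00260) and 1.52 (adjusted p = 0.000535), from 7.21 to 7.74 in the livers to 8.61 to 8.93 in the lines.

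ATP synthase is the enzyme that uses the proton gradient. Of its 16 measured genes, 7 were higher and 0 lower in each line comparison, with medians of 0.53 and 0.48, and the median of KO against WT livers was -0.05. Atp5g1, a gene for the rotating c subunit, read 12.12, 12.16 and 12.09 in the lines and 10.77 to 11.43 in the livers, a difference of 1.05 against KO livers (adjusted p = 0.0132). Of 16 chain genes outside the symbol rule, such as those for coenzyme Q synthesis, 7 were higher and 0 lower against KO livers (median 0.68) and 10 higher and 1 lower against WT livers (0.77). The 1 lower gene was Coq8a, a coenzyme Q kinase-like protein, at -2.61 (SE 0.482, adjusted p = 0.0121), with 8.79, 10.47 and 10.36 in the WT livers, 8.40, 9.85 and 7.99 in the KO livers and 6.98, 7.59 and 7.23 in the lines. The lines were wholly below the livers, and WT replicate 1 was the lowest of its group.

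Of the subunits encoded in mitochondrial DNA, COX2 and ND3 had a probe set of their own, and neither passed in any comparison. COX2 read 13.51, 13.37 and 13.47 in the WT livers, 13.23, 13.43 and 13.15 in the KO livers and 13.05, 13.12 and 13.38 in the lines. The 3 groups overlapped, and the differences of the lines were -0.09 against KO livers (adjusted p = 0.681) and -0.27 against WT livers (adjusted p = 0.144). ND3 differed by 0.09 (adjusted p = 0.752) and -0.32 (adjusted p = 0.0966), with the lines wholly below the WT livers. Both are at the bright end of the arrays, and whether their probes were saturated was not tested.

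Among 19 regulators of respiratory genes, 4 were higher and 1 lower against KO livers (median 0.04) and 5 higher and 2 lower against WT livers (0.23). Of all genes, 11.4% were called higher and 10.1% lower against KO livers, and 17.6% higher and 11.1% lower against WT livers. With dim genes left out, 19.1% and 29.9% were called higher, and the counts of higher regulators lie near these shares. Ppargc1a, the coactivator of mitochondrial gene programmes, read 6.79, 6.62 and 6.39 in the WT livers, 5.95, 6.79 and 5.73 in the KO livers and 9.61, 9.57 and 9.05 in the lines. It was higher in every line than in every liver, by 3.25 against KO livers (SE 0.323, adjusted p = 0.00251) and 2.81 against WT livers (SE 0.194, adjusted p = 0.000401). Twnk, the mitochondrial DNA helicase, rose by 1.10 against KO livers (adjusted p = 0.0341). Tfam, which packages and transcribes mitochondrial DNA, read 5.68, 6.64 and 6.66 in WT livers, 6.82, 7.00 and 6.83 in KO livers and 8.36, 7.56 and 7.00 in the lines. Its lines spread over 1.36 log2 units, and the difference of 1.32 from WT livers had an adjusted p of 0.0741. Every line was below every liver for Gabpb1, at 8.56, 8.25 and 7.92 against 8.69 to 9.19. The same held for Polg2, at 7.11, 6.92 and 6.36 against 7.56 to 7.81. For Nrf1, Gabpa and Yy1 the lines overlapped the range of the 6 livers.

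Lists of mitochondrial genes outside the chain also held genes that were higher in the lines, read here against the same shares of 11.4% and 17.6% (19.1% and 29.9% with dim genes left out). Of 26 mitochondrial ribosomal protein genes, 13 were higher against KO livers (median 0.94) and 17 against WT livers (1.07). Import and outer membrane genes were higher for 6 and 10 of 15 (0.77 and 0.99), and tricarboxylic acid cycle genes for 5 and 7 of 13 (0.60 and 0.59), with 0 lower in these 3 lists. Idh3a, of the NAD-dependent isocitrate dehydrogenase, rose by 1.66 (adjusted p = 0.0171) and 1.55 (adjusted p = 0.0331). Glycolysis genes went both ways, with 4 higher and 2 lower of 17 against KO livers (0.25) and 7 higher and 2 lower against WT livers (0.72). Pfkfb3, which makes an activator of phosphofructokinase, fell by 2.17 and 2.60 on the log2 scale (adjusted p = 0.000904 and 0.000634). No gene of these lists passed the threshold between KO and WT livers.

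**Figure D4:**
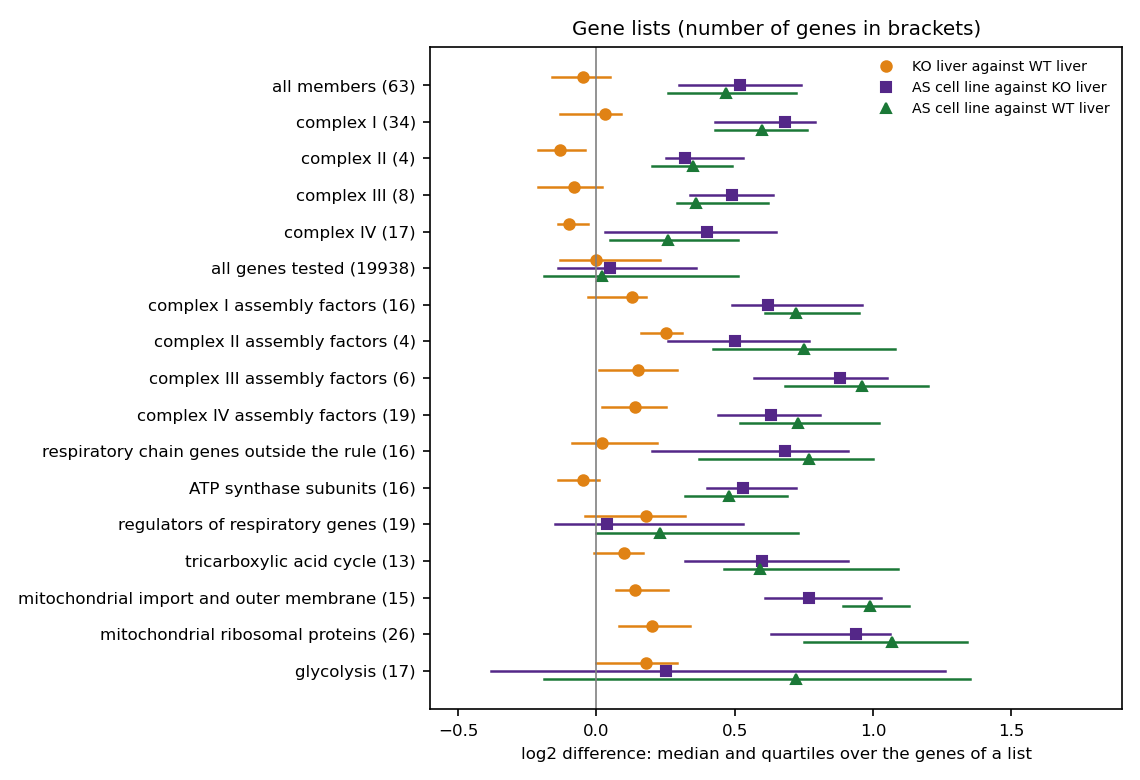
Median log2 difference (horizontal axis, with lines from the lower to the upper quartile over the genes of a list) for the members, the 4 complexes, all 19938 genes and the other lists, in the 3 comparisons. Medians of the members are 0.52 and 0.47 in the line comparisons against 0.05 and 0.02 for all genes, and the widest quartile range is that of glycolysis. The list of 2 genes of mitochondrial DNA and the cell type markers are left out.

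The lines differed from the livers in cell type markers as well. Hepatocyte markers were called lower in the lines for 4 of 15 genes against KO livers and 8 of 15 against WT livers. Leukocyte and Kupffer cell markers were called lower for 7 and 5 of 8. Over all genes, 10.1% and 11.1% were called lower. Of the hepatocyte markers, 2 had a difference above 0 against KO livers and 1 against WT livers, with 0 called higher. Hnf4a read 10.95, 11.10 and 10.35 in the lines and 7.16 to 10.53 in the livers. Alb and Ttr in the lines lay within the range of the livers. Proliferation markers had array means of 10.65, 7.18 and 8.61 in the lines, against 6.98 to 7.13 in the WT livers and 7.92 to 9.34 in the KO livers. Against WT livers all 9 differences were above 0, with a median of 1.61 (3.05-fold), and for 6 of the 9 every line was above every WT liver. None of the 9 passed an adjusted p of 0.05 in limma there, and 3 had an unadjusted p under 0.05. Against KO livers 6 of the 9 differences were above 0 (median 0.18), with 0 past either threshold. The spread of the members in the lines was close to that in the livers, with a median SD of 0.20 in the lines, 0.14 in WT livers and 0.17 in KO livers, and line 3 was the lowest line for 32 of the 63 members. The part of the cell type markers in the members' differences was not tested. A shift of most genes in 1 direction cannot be seen in these values, which were scaled to nearly the same distribution on each array.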

How the data were processed

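Expression in 9 samples was measured on Affymetrix whole-transcript arrays from biotinylated cDNA of total RNA, per the labels' protocols. The authors deposited log2 expression values per probe set, made with RMA and the oligo package per the submitters' processing notes; no source used here gives their versions. The table has 35556 probe sets, 0 missing values and 0 value columns without a sample. Through the platform's annotation, 21789 probe sets have 1 gene, 1621 have several and 12146 are unlisted; the brightest 1-gene probe set per gene left 19938 genes, of which 999 had a choice.

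The labels give 3 separate animals or lines per group. Each pair of groups was fitted on its 6 arrays with limma 3.58.1 (lmFit and eBayes, 2-sided, R 4.3.3) with no covariate, and p-values were adjusted over all genes by Benjamini-Hochberg, with calls at an adjusted p under 0.05. The number of arrays limits the precision. On simulated data with the same spread in both groups the share of unchanged genes among the calls was close to the nominal rate; with each group's own spread per gene it was well above it in all 3 comparisons, so the calls here may hold more false ones than the threshold states. Alternatives covered the arrays in the fit, a replicate block, the variance model, a filter on dim genes, scaling, the choice of probe set, array weights, thresholds, the symbol rule and leaving out each replicate.

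Members, lists and tests were chosen with earlier results of these data known. The text names, per comparison and complex, the 3 members of largest difference (6 for complex I) and the 2 of smallest, the catalytic or core subunits, the complex IV isoforms, up to 2 genes of largest difference per list, and the genes of counts given in full. Members named for a small adjusted p, for non-overlap or as a called member (such as Ndufa12 and Ndufa7) were chosen after their values were seen. So were Pecam1, Alb, Ttr, Hnf4a, Gabpb1, Polg2, Nrf1, Gabpa and Yy1. Promoter windows come from RefSeq. Figures were drawn with matplotlib 3.10.9.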

Additional observations from a re-analysis of the deposited data

How the results depend on the processing

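The members' median stayed above 0 in both line comparisons under each alternative that changes the differences: from 0.47 to 0.61 against KO livers and from 0.34 (75th percentile scaling) to 0.54 against WT livers. In KO against WT livers it ran from -0.21 (75th percentile scaling) to 0.01. With array weights, an alternative added for the median after seeing the data, it was 0.58, 0.41 and -0.16. These moves are smaller than the SD of the array medians of the members (0.25, 0.14 and 0.27, pooled over both groups), but the move to -0.21 from -0.05 is larger than the SD of the members' mean (0.14 in WT and 0.15 in KO livers). That scaling moved the median of all genes to -0.16 in KO against WT livers and to -0.11 in lines against WT livers, and leaving out dim genes moved it to 0.16, 0.12 (lines against KO livers) and 0.27. Counts of called members moved more. Against KO livers, 22 became 35 with all 9 arrays in 1 fit, 34 with array weights, 37 at an adjusted p under 0.10 and 5 with a 2-fold minimum, and leaving out 1 replicate gave 5 to 22. Over all 19938 genes, the 2268 called higher became 3078 with all 9 arrays, 2907 with array weights and 1218 with a 2-fold minimum. Leaving out 1 replicate gave 986 to 2241 such genes, and their number at an adjusted p under 0.10 is not given here. Against WT livers, 21 became 32 at an adjusted p under 0.10 and 3 with a 2-fold minimum, and leaving out 1 replicate gave 8 to 23. Here the 3506 genes called higher over all genes became 1928 with a 2-fold minimum, and 1931 to 3486 without 1 replicate. In KO against WT livers, 8 members were called with array weights and 0 under each other alternative, leave-one-out fits included. The cause of these changes was not tested. With the replicate number as a block, the counts were 12 and 12 in the line comparisons and 0 in KO against WT livers. Over all genes that fit called 1717 higher against KO livers and 2584 against WT livers. The labels name biological replicates and give no pairing by number. Deviations of same-numbered arrays correlated at 0.31, 0.43 and -0.39 between KO and WT livers, 0.24, 0.34 and 0.07 between lines and KO livers, and 0.04, 0.17 and -0.16 between lines and WT livers. Those of differently numbered arrays ran from -0.48 to 0.47, from -0.30 to 0.20 and from -0.17 to 0.15. With 3 arrays per group, these values cannot settle whether the numbers pair the samples. No called member changed sign. Differences that were not called changed sign for up to 20 members in KO against WT livers (75th percentile scaling) and for up to 5 in the line comparisons. Ndufa4l2, added by a looser symbol rule, differed by -0.04, 0.03 and -0.01. The table has no detection calls, so low values carry no lower limit.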

Other observations

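Probe sets shared by 2 genes were kept out of the counts, and these gave values that cannot be assigned to a single gene for Cox7c and Ndufb4, which are not among the 63 members, and for Ndufs5, a member that also has a probe set of its own. A probe set given to both Cox7c, a small complex IV subunit, and Gm12338 had means of 12.57 in WT livers, 12.36 in KO livers and 12.87 in the lines, and on it every line (12.79 to 12.91) was above every liver (12.21 to 12.59). A probe set given to Ndufb4 and Ndufb4b, of complex I, had means of 11.34, 11.16 and 11.89, with the lines at 11.62 to 12.20 and the livers at 11.00 to 11.35. A probe set given to Ndufs5 and its pseudogene had means of 6.79, 7.22 and 7.69, with the lines at 7.58 to 7.76 and the livers at 6.64 to 7.43. No test was run on these shared probe sets.

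For 10 of the 63 members more than 1 probe set was on the array. The second Ndufc1 probe set read 10.03, 10.57 and 9.53 in the lines and 8.85 to 9.10 in the livers, so that it too had every line above every liver. The second Cox7a2l probe set read 7.83, 8.15 and 8.14 in the WT livers and 8.65, 8.71 and 8.41 in the KO livers, again with the KO livers wholly above the WT livers, and 8.25, 8.12 and 8.27 in the lines. Both were picked after their values were seen. Averaging all probe sets of a gene changed the call of 0 members in each comparison.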
